A study of Xenopus laevis with 16 samples.

Results

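The comparison described here is between 5 days and 1 day after hindlimb amputation in stage 53 tadpoles of the African clawed frog Xenopus laevis. It uses 8 of the 16 arrays of the study, the 4 whose titles give stage 53 at 1 day and the 4 whose titles give stage 53 at 5 days, and no other array entered its fit. Amputation was at the middle of the zeugopodium (the shank), on 1 or both sides, and the tissue collected lay 1 mm proximal to the cut. The other 8 arrays are of limbs cut in the same way at stage 57, which the study describes as unable to regenerate, whereas stage 53 is described as able to.

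No strain, genotype, transgene or drug is given for either day, so by the labels both groups share the stage at amputation, the cut and the site of collection and differ in the day. Growth of the animals between the days cannot be told apart from the response to the cut. The running codes in the titles also separate the days, and what they stand for is not given. The labels do not say whether limbs were pooled, or whether the 4 replicates of a day came from separate animals, so the spread behind each p-value is that between these arrays and could be technical alone. No uninjured limb was analysed here, and a difference between days therefore does not show which day departs from an uncut limb. Replicate numbers were given here in accession order, so they only name arrays and pair none of them.

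Limb regeneration in amphibian larvae begins with closure of the wound by epidermis and a burst of injury-response transcription, inflammation and matrix breakdown. Cells then gather under a thickened wound epidermis as a blastema, a mound of dividing progenitors. The blastema goes on to use the signals of the embryonic limb bud, with FGFs from the epidermis, sonic hedgehog from posterior mesenchyme, and BMP and WNT signals that are tuned by secreted antagonists.

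Values are log2 MAS5 signals of Affymetrix probe sets, and differences are 5 days minus 1 day on that scale, so a difference of 1 is a 2-fold change. The suffixes .L and .S mark the homeologous subgenomes of this tetraploid species, and each homeolog is treated as its own gene. Signals compare 1 probe set between arrays and not different genes with each other. Pairs of arrays from the same day had a Pearson r across probe sets between 0.914 and 0.955 (median 0.929), and pairs from different days between 0.897 and 0.947 (median 0.920). The first principal component held 37.8% of the variance and placed the 1 day arrays at -42.5, 3.1, -20.1 and -37.3 and the 5 day arrays at -7.8, 9.2, 42.4 and 52.9. The 5 day arrays therefore lay in 2 pairs, with replicates 3 and 4 farther from the 1 day arrays than replicates 1 and 2. Replicates 3 and 4 at 5 days, with replicate 2 at 1 day, were also the 3 arrays whose spiked control bioC read above 12 on the log2 scale. RNA and hybridisation measures did not pass between days. The actin control probe sets gave a 3' to 5' log2 ratio of 0.31 ± 0.30 at 1 day and 0.63 ± 0.47 at 5 days (SD, n = 4; two-sided exact permutation test, p = 0.257, Benjamini-Hochberg adjusted over the 3 measures to 0.771). For GAPDH the ratio was 4.49 ± 0.40 and 4.38 ± 0.65, and spiked bioB read 9.62 ± 0.15 and 9.54 ± 0.43 (both 0.914 adjusted, exact permutation tests). The smallest p that 4 arrays against 4 allow in this test is 0.0286, so after adjustment over 3 measures 1 measure alone could not pass. Spiked bioC was not among the measures tested.

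Genes higher at 5 days included 8 of 52 in DNA replication, 5 of 12 in FGF signalling and 3 of 42 in limb patterning. Lower were 5 of 26 early injury genes and 4 of 21 proteases and inhibitors. All 4 were matrix metalloproteinases, as was the 1 member of that list that rose. Also lower were 9 of 40 genes of protein folding and export in the endoplasmic reticulum and 7 of 40 in glycolysis and hypoxia. Of these counts, only those of early injury genes and lower proteases stayed above 0 without the 3 arrays of high bioC. The same held in a fit of all 16 arrays. Of 11618 probe sets tested, 278 passed an adjusted p of 0.05 (2.39%), with 121 higher at 5 days (1.04%) and 157 lower (1.35%). Without adjustment 2126 had p below 0.05, 1188 of them higher and 938 lower. Of 6126 named genes, each by its brightest probe set, 1.08% were called higher and 1.76% lower. These figures are the background to the counts given for gene lists below. The called increases ran from 0.71 to 3.91 with a median of 1.25, and the called decreases from -0.58 to -5.26 with a median of -1.34. Decreases thus reached farther: 30 called probe sets fell by more than 2, against 11 that rose by more than 2. The median difference over all 11618 was 0.08. Centring each array on its median moved that to -0.03 and the split of calls to 95 higher and 248 lower, so the balance of directions depends on the scaling. The 5 day arrays of all 121 increases and of 156 of the 157 decreases did not overlap the 1 day arrays. Among all probe sets tested, 6.24% lay above and 4.91% lay below on every array. In bulk tissue such as this, fewer cells of a type and less RNA per cell cannot be told apart, in these calls or in the results that follow.

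**Figure D1:**
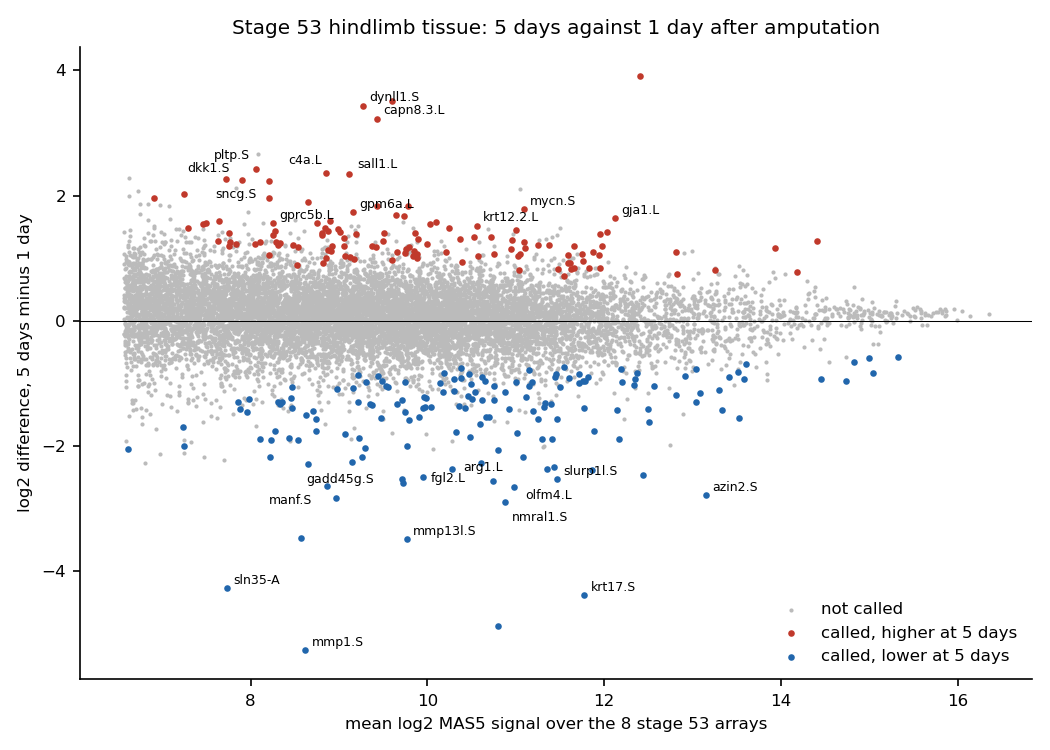
Each point is 1 of 11618 probe sets, with the mean log2 MAS5 signal over the 8 stage 53 arrays on the horizontal axis and the log2 difference, 5 days minus 1 day, on the vertical axis. Red points are the 121 called higher and blue points the 157 called lower, and the 24 genes with the largest changes under the naming rule are labelled; the decreases reach -5.26 (mmp1.S), and the largest labelled increase is 3.44 (dynll1.S).

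The number of calls depended on single arrays. With each array left out in turn, between 22 and 183 probe sets were higher and between 34 and 235 lower. The fewest remained without replicate 4 at 1 day (22 higher and 34 lower). Counts also fell by more than 1.5 times in both directions without replicate 1 at 1 day (32 and 49) and without replicates 2 (50 and 79), 3 (30 and 58) or 4 (29 and 55) at 5 days, and without replicate 2 at 1 day 183 were higher. Without the 3 arrays of high bioC, 17 were higher and 28 lower, 36 of these 45 being among the 278, and all 278 kept their sign with an unadjusted p below 0.05. When the stage 57 arrays shared the estimate of spread in a fit of all 16 arrays, 4 were higher and 9 lower, all 13 among the 278. Of the stage 57 arrays, 3 had 3' to 5' actin ratios of 4.70, 4.76 and 5.72, against 2.38 or less on the other 5. Without those 3, the joint fit called 150 higher and 216 lower. For all 121 increases and 156 of the 157 decreases the days did not overlap, so leaving arrays out could not change their sign. The joint fits have the same stage 53 differences as the main fit. Agreement in sign was thus fixed in advance for these calls and lends them no support. The 278 were also picked for small p on arrays that the smaller fit reuses, so their unadjusted p there lends none either.

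Within the 5 day group, the pairing of arrays seen in the principal component ran through the calls. Replicates 3 and 4 both lay below replicates 1 and 2 for 65 of the 157 decreases (41.4%), against 25.6% of all probe sets. Both lay above for 51 of the 121 increases (42.1%), against 27.4% of all probe sets. The part of these 2 arrays in the results was not tested beyond leaving them out.

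The largest decrease was in mmp1.S, an interstitial collagenase that cleaves fibrillar collagen. Its log2 signal was 11.82, 11.61, 10.38 and 11.19 at 1 day and 6.90, 7.16, 4.89 and 5.00 at 5 days. The groups lay far apart, with replicates 3 and 4 lowest at 5 days, and the difference of -5.26 (SE 0.52, n = 4 per day) was a 38.4-fold fall with an adjusted p of 0.000546. At 5 days the mean of 5.99 lay under the signal of 6.56 below which probe sets were filtered on their overall mean, and no detection call was used, so the size of the fold is uncertain. A collagenase 3-like gene, mmp13l.S, read 12.24, 11.98, 10.80 and 11.04 at 1 day and 9.41, 9.63, 6.99 and 6.07 at 5 days. All 5 day arrays lay below all 1 day arrays, again with replicates 3 and 4 lowest, and it fell by 3.49 (SE 0.70, adjusted p = 0.0272). That call held in 4 of the 8 fits with an array left out, and that of mmp1.S in all 8. Over all alternative fits the difference ran from -4.02 to -1.84 for mmp13l.S and from -5.65 to -3.85 for mmp1.S.

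Of the 21 proteases and protease inhibitors tested, 4 fell (mmp1.S, mmp13l.S, mmp11.L and mmp9.1.S), 1 rose and 16 did not pass, with a median of -0.14. Over 6126 named genes, each represented by its brightest probe set, 1.76% were lower and 1.08% higher. The stromelysin-type gene mmp11.L read between 10.20 and 10.54 at 1 day and 9.04, 8.49, 7.25 and 7.93 at 5 days, a tight group followed by a spread one, and fell by 2.17 (SE 0.33, adjusted p = 0.00947). The gelatinase mmp9.1.S, which degrades basement membrane, showed the reverse spread, with 12.79, 11.58, 11.85 and 12.75 at 1 day and 10.57 to 10.82 at 5 days. It fell 2.95-fold (difference -1.56, SE 0.27, adjusted p = 0.0153). The stromelysin mmp3.L was the member that rose, from 6.62 to 7.09 at 1 day to 8.22, 7.42, 9.31 and 8.80 at 5 days (difference 1.6, SE 0.38, adjusted p = 0.0495). Its call ended in 7 of the 8 fits with an array left out. The count of proteases lower ran from 2 to 5 in those fits, and was 2 without the 3 arrays of high bioC and 1 in the fit of all 16 arrays.

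Among named genes the next largest fall was in krt17.S. In mammals keratin 17 is a filament protein of epidermal appendages and is switched on in wounded skin. It read 14.49, 13.81, 13.67 and 13.89 at 1 day and 10.82, 10.05, 9.03 and 8.44 at 5 days. The 5 day arrays were spread more widely than the 1 day arrays and lay below all of them, and the fall of 20.8-fold (difference -4.38, SE 0.43, adjusted p = 0.000546) was called in each alternative fit. The gene slurp1l.S, a relative of the secreted epithelial Ly6 proteins, fell by 2.52 (SE 0.25, adjusted p = 0.000546). The fall of jup.L, the junction protein plakoglobin, was among the smaller ones called (-0.70, SE 0.16, adjusted p = 0.043). The call of jup.L held in 1 of 8 fits with an array left out. Moving the other way, 2 probe sets of the keratin krt12.2.L rose by 1.52 and 1.45 (adjusted p = 0.023 and 0.0188).

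Taking the 32 epidermal genes tested, 2 fell (krt17.S and jup.L), 1 rose (krt12.2.L) and 29 did not pass, with a median of -0.37. Of all 6126 named genes, 1.76% were called lower and 1.08% higher. The larval keratin krt12.5.S differed by -0.08 (SE 0.17, adjusted p = 0.844). The simple-epithelium keratin krt8.1.S lay just outside the threshold at -1.08 (adjusted p = 0.0506), and another of its probe sets passed at -1.02 (adjusted p = 0.0414). The 9 matched epidermal marker genes, of which 6 lay above the filter, had a summed log2 signal of 15.62 to 15.82 at 1 day and 15.54 to 15.81 at 5 days, and the groups overlapped. Such a sum adds linear signals, so the brightest genes dominate it, here krt7.L and krt12.5.S (mean log2 14.7 and 14.1).

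Among the other 10 largest decreases were genes of polyamine and arginine metabolism. The gene azin2.S, an antizyme inhibitor that raises polyamine synthesis, read 14.94, 14.08, 14.55 and 14.61 at 1 day and 12.01, 11.77, 11.995 and 11.28 at 5 days. Both groups were narrow, and the 6.88-fold fall (difference -2.78, SE 0.22) had an adjusted p of 0.00017. The arginase gene arg1.L, whose product turns arginine into ornithine, fell by 2.56 (SE 0.41, adjusted p = 0.0117). The secreted glycoprotein gene olfm4.L fell by 2.65 (SE 0.36), and the fibrinogen-like gene fgl2.L fell by 2.5 (SE 0.31). The gene nmral1.S, for a redox-sensing NmrA-like protein, fell by 2.89 (SE 0.49) with 1 array at 5 days, replicate 1 at 11.10, well above the others at 8.42 to 9.14. The gene listed as sln35-A fell by 4.27 (SE 0.58), from 9.26 to 10.70 at 1 day to 6.83, 6.65, 4 and 4.91 at 5 days, where the last 2 arrays were under the filter level.

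**Figure D2:**
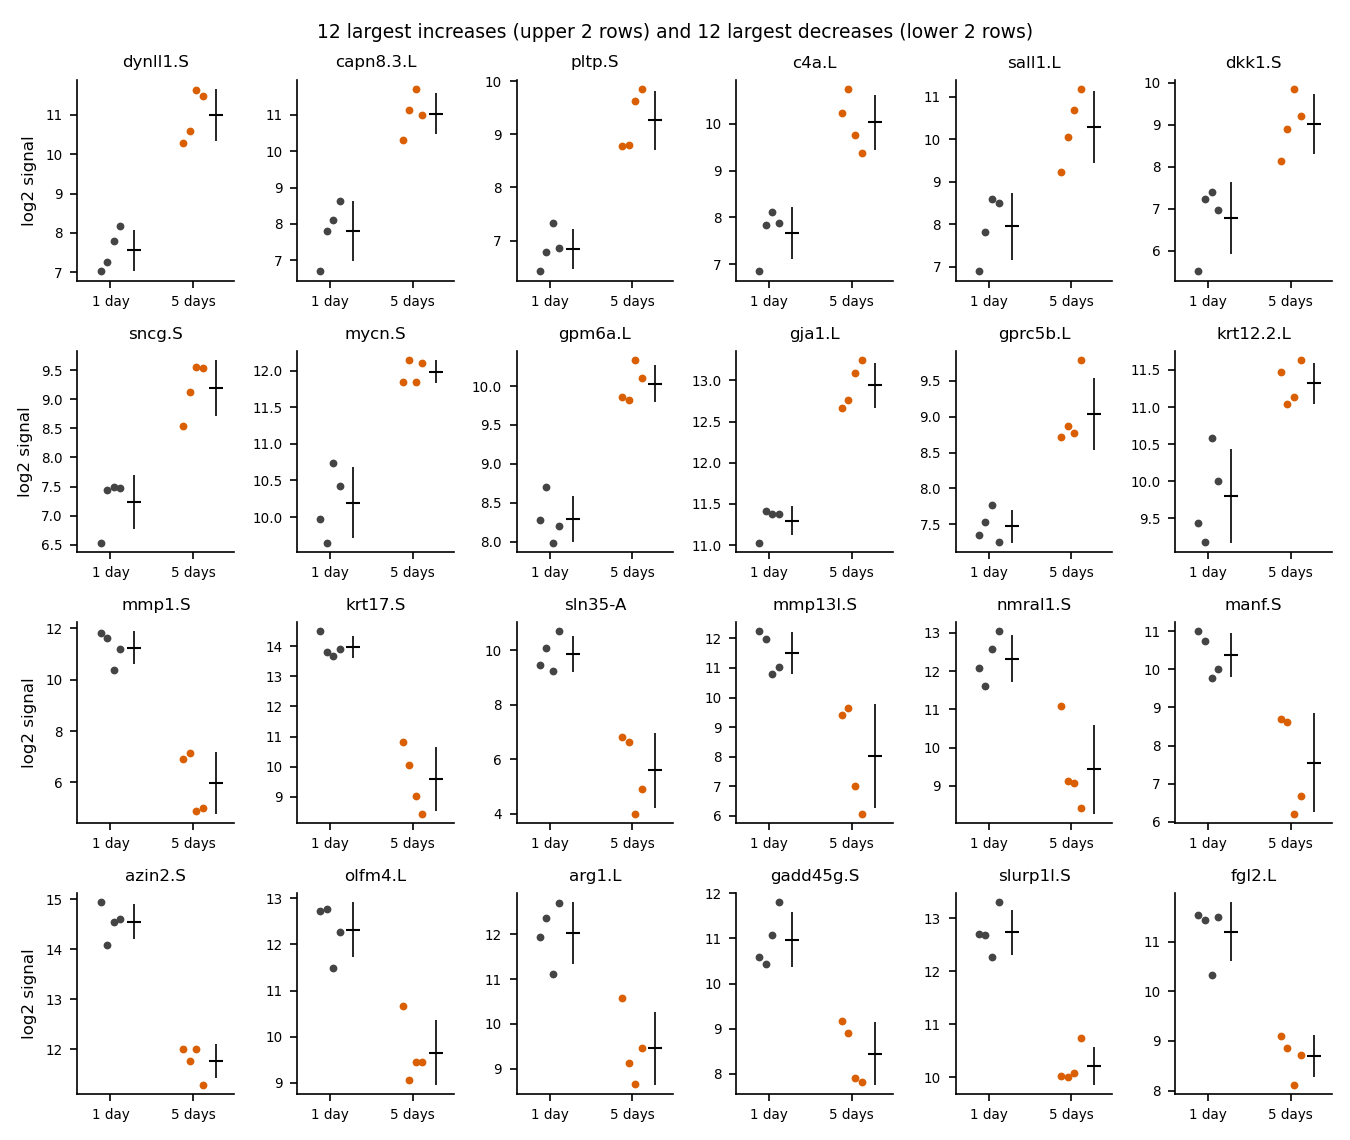
Log2 MAS5 signal of the genes with the 12 largest increases (upper 2 rows) and the 12 largest decreases (lower 2 rows) named by the rule, on the 4 stage 53 arrays at 1 day (grey) and the 4 at 5 days (orange); points run in order of replicate number, and the bar beside them is the mean with its SD. No panel has overlapping days, because the rule required that, and in mmp1.S, mmp13l.S and manf.S replicates 3 and 4 lie below replicates 1 and 2 at 5 days.

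The early injury response comprises transcription factors and stress genes that wounding switches on within hours. Of 26 such genes tested, 5 fell, 0 rose and 21 did not pass, and 22 had a difference below 0 (median -0.57 against 0.08 over all probe sets). At an unadjusted p below 0.05, 14 were lower and 0 higher, against 938 and 1188 of all 11618 probe sets. The count lower ran from 1 to 7 with an array left out, and was 1 both without the 3 arrays of high bioC and in the fit of all 16 arrays. The cytokine-signal inhibitor socs3.L, a target and brake of JAK-STAT signalling, read 11.95, 11.36, 12.11 and 11.91 at 1 day and 10.27, 10.38, 9.34 and 9.096 at 5 days. The days did not overlap, and it fell 4.17-fold (difference -2.06, SE 0.31, adjusted p = 0.00848) with a call in each alternative fit.

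The AP-1 subunit gene jun.L read 11.22, 11.40, 11.67 and 11.41 at 1 day and 10.41, 9.49, 9.39 and 10.30 at 5 days. It fell by 1.53 (SE 0.26, adjusted p = 0.0138), and its partner junb.L fell by 1.89 (SE 0.36, adjusted p = 0.0206) with replicate 4 lowest at 9.28. The transcription factor gene cebpb.L, an activator of acute-phase and macrophage genes, read 12.17, 11.21, 10.94 and 11.37 at 1 day and 10.17, 10.53, 9.33 and 9.05 at 5 days (difference -1.65, SE 0.35, adjusted p = 0.0338). Its lowest 1 day array and highest 5 day array lay closer together than those of socs3.L. The haem-degrading enzyme gene hmox1.S fell by 1.75 (SE 0.39, adjusted p = 0.0377), with 1 day arrays spread from 11.72 to 13.62. Its call held in 3 of 8 fits with an array left out, and the homeolog hmox1.L differed by -0.54 and did not pass (adjusted p = 0.185).

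Both egr1.L and has2.S of that list missed the threshold. The zinc-finger gene egr1.L read 11.81, 10.50, 10.71 and 10.91 at 1 day and 10.16, 10.09, 9.60 and 9.26 at 5 days, without overlap (-1.21, SE 0.30, adjusted p = 0.0598). The hyaluronan synthase has2.S, which makes the hydrated matrix of early wounds, had a difference of -1.61 (SE 0.39, adjusted p = 0.0554). The interleukin gene il1b.S, of the inflammation list, had -1.64 (SE 0.57, adjusted p = 0.157). The stress-induced growth inhibitor gadd45g, of the G1 control list, fell in both homeologs, gadd45g.S by 2.53 (SE 0.37, adjusted p = 0.00848) and gadd45g.L by 2.04 (SE 0.31, adjusted p = 0.0103), and each call held in all 8 fits with an array left out.

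Genes for protein folding and export in the endoplasmic reticulum (ER) gave the most decreases of any list. Of 40 tested, 9 fell, 0 rose and 31 did not pass, and 38 had a difference below 0, with a median of -0.65. At an unadjusted p below 0.05, 21 were lower and 0 higher, against 938 and 1188 of all 11618 probe sets. The protein disulphide isomerase gene pdia6.L read 13.17, 13.06, 11.90 and 12.29 at 1 day and 10.50, 10.79, 9.98 and 9.78 at 5 days. No arrays overlapped, and it fell 5.07-fold (difference -2.34, SE 0.31, adjusted p = 0.00539). The secreted ER stress factor manf.S read 10.99, 10.74, 9.78 and 9.998 at 1 day and 8.70, 8.62, 6.21 and 6.67 at 5 days, with replicates 3 and 4 lower than 1 and 2 on both days (difference -2.83, SE 0.54, adjusted p = 0.0209).

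The main ER chaperone BiP, encoded by hspa5.L, also had replicates 3 and 4 lowest at 5 days. It read 12.94, 12.14, 11.33 and 12.24 at 1 day and 10.79, 10.94, 9.34 and 8.89 at 5 days and fell 4.50-fold (difference -2.17, SE 0.46, adjusted p = 0.0343). Its homeolog hspa5.S had a difference of -1.92 and missed the threshold (SE 0.48, adjusted p = 0.0594). The co-chaperone dnajc3.L fell by 1.55 (SE 0.26, adjusted p = 0.0137) and the isomerase pdia4.L by 0.90 (SE 0.18, adjusted p = 0.029). The remaining calls were hsp90b1.L, encoding the HSP90 of the ER (-1.79, with overlapping days), creld2.L (-1.44), the translocon subunit sec61g.L (-0.90) and calreticulin, calr.L (-0.88). A dimmer probe set of sec61g.L differed by -0.35 and did not pass (adjusted p = 0.366). The count of ER genes lower ran from 1 to 13 with each array left out, and was 0 without the 3 arrays of high bioC and 0 in the fit of all 16 arrays.

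Cytosolic chaperones moved less uniformly. Of 33 tested, 2 fell, 0 rose and 31 did not pass, with 22 below 0 and a median of -0.40. The share of all 6126 named genes called lower was 1.76%. The calls were hsph1.L, a nucleotide exchange factor of HSP70 (9.71, 8.88, 8.81 and 9.27 at 1 day against 7.61, 7.84, 7.71 and 7.95 at 5 days, adjusted p = 0.0155), and hspa5.L, which the list also holds although its product works in the ER. Ribosomal protein genes, 70 tested, had 0 calls in either direction (1 higher and 0 lower at an unadjusted p below 0.05) and a median of 0.10. Genes of ribosome biogenesis, 39 tested, also had 0 calls (3 higher and 0 lower unadjusted) and a median of -0.03.

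Glycolytic and hypoxia-response genes split. Of 40 tested, 7 fell, 0 rose and 33 did not pass, while the median was -0.12 and 14 lay above 0. At an unadjusted p below 0.05, 11 were lower and 5 higher, against 938 and 1188 of all 11618 probe sets. Over 6126 named genes 1.76% were called lower. The count lower ran from 1 to 8 with an array left out, and was 0 without the 3 arrays of high bioC and 0 in the fit of all 16 arrays. The calls lay along the pathway from glucose uptake to pyruvate and lactate. They were the glucose transporter slc2a3.L (-1.76), hexokinase hk2.L (-2.18), both aldolase homeologs aldoa.L (-1.30) and aldoa.S (-0.90), phosphoglycerate kinase pgk1 (-1.04), pyruvate kinase pkm.S (-1.18) and lactate dehydrogenase ldhb.L (-1.04). Pyruvate kinase pkm.S read 13.55, 13.04, 13.39 and 13.64 at 1 day and 12.52, 12.42, 12.01 and 11.93 at 5 days. All 4 later arrays lay below all 4 earlier ones (SE 0.20, adjusted p = 0.0133). The homeologs pkm.L (-0.41, adjusted p = 0.279) and ldhb.S (-0.01, adjusted p = 0.982) did not pass. Hexokinase hk2.L, which commits glucose to the pathway, read 9.93, 9.21, 8.43 and 9.67 and then 7.70, 6.34, 6.87 and 7.61 (4.53-fold, SE 0.38, adjusted p = 0.0153).

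Muscle is rich in these enzymes. Muscle energy genes, of which 16 were tested and which share the aldolases, had 3 lower and 1 higher. Shares over 6126 named genes were 1.76% lower and 1.08% higher. The muscle creatine kinase gene ckm.L fell by 1.06 (SE 0.24, adjusted p = 0.0394), but 2 dimmer probe sets of it differed by -0.46 and -0.31 and did not pass. The fatty-acid carrier gene fabp3.S rose by 1.02 (SE 0.21, adjusted p = 0.0279). With an array left out, the call of ckm.L held in 2 of 8 fits and that of fabp3.S in 3. The list's count lower ran from 1 to 4 in those fits. No gene of this list was called without the 3 arrays of high bioC or in the fit of all 16 arrays. The 13 matched skeletal muscle marker genes, 12 above the filter and ckm.L among them, had a summed log2 signal of 13.61 to 14.06 at 1 day and 13.58 to 13.65 at 5 days, with overlap, and the part of muscle content in the glycolytic result was not tested. The brightest genes, atp2a1.S and ckm.L (mean log2 12.7 and 11.5), weigh most in that sum. Sarcomere genes, 22 tested, had 0 calls, a median of 0.45 and 18 above 0 (7 higher and 1 lower unadjusted). Respiratory chain genes, 54 tested, had 0 calls and a median of -0.04 (3 higher and 5 lower unadjusted).

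**Figure D3:**
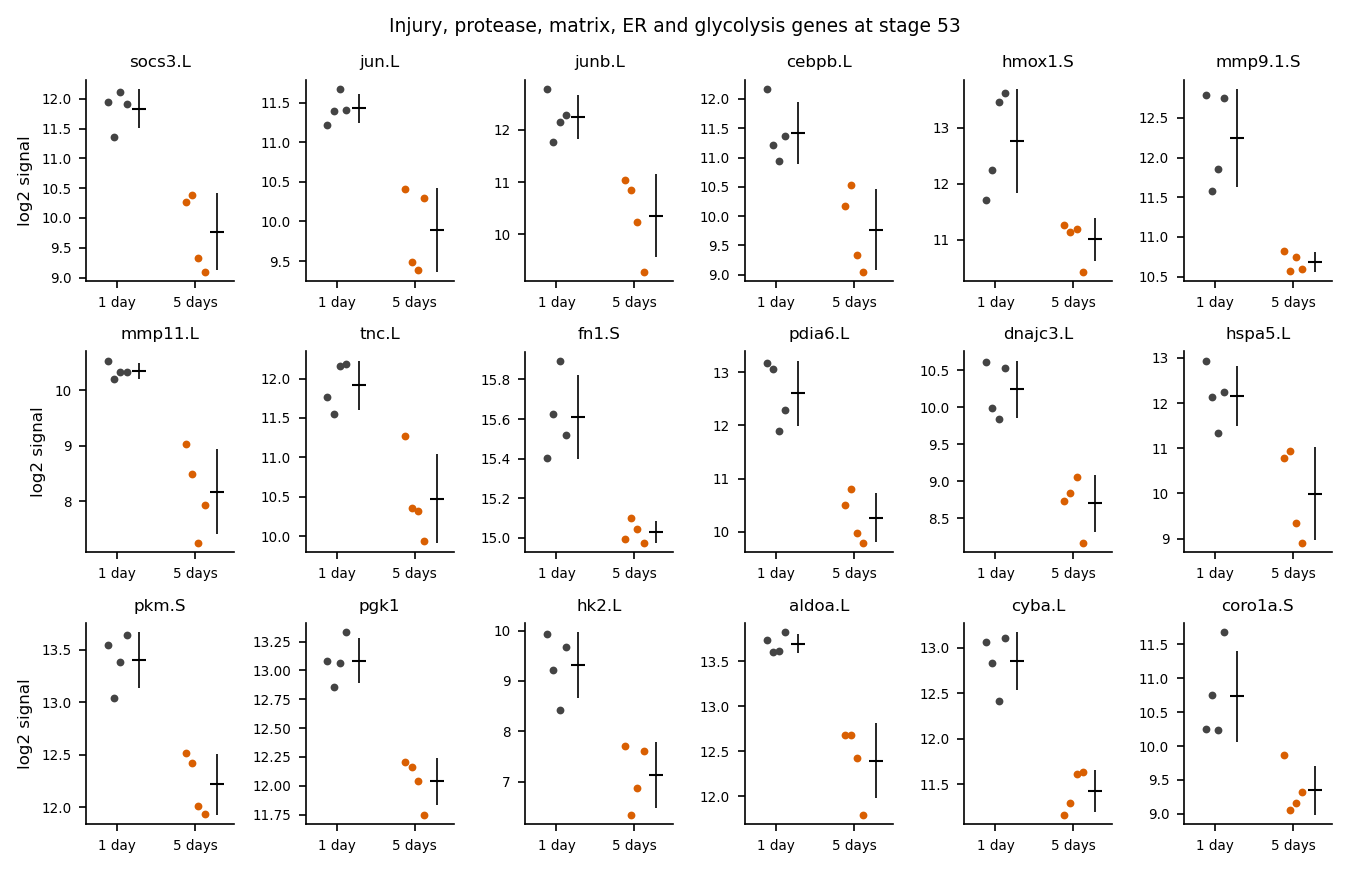
Log2 MAS5 signal of 18 genes of injury response, proteases, matrix, the ER, glycolysis and myeloid cells on the 4 stage 53 arrays at 1 day (grey) and the 4 at 5 days (orange), with mean and SD beside each group. All 18 are lower at 5 days with no overlap between days; hspa5.L, pdia6.L and socs3.L have replicates 3 and 4 lowest at 5 days, while cyba.L has them highest.

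Matrix genes of wounds and fibroblasts changed in both directions. Of 28 tested, 2 fell, 1 rose and 25 did not pass (median 0.11). The shares over 6126 named genes were 1.76% lower and 1.08% higher. The count lower ran from 0 to 3 with an array left out. Neither direction had a call without the 3 arrays of high bioC or in the fit of all 16 arrays. Fibronectin, fn1.S, the provisional matrix protein of wounds, read 15.40, 15.63, 15.89 and 15.52 at 1 day and 14.995, 15.10, 15.04 and 14.98 at 5 days. The fall was 1.496-fold (difference -0.58, SE 0.13, adjusted p = 0.0391), and all 3 of its other probe sets were also called lower, at -0.66 to -1.43. On this brightest probe set the call held in 1 of the 8 fits with an array left out. The anti-adhesive matrix gene tnc.L, found in wound and blastema matrix, fell by 1.44 (SE 0.28, adjusted p = 0.023), although a dimmer probe set at -1.10 did not pass (adjusted p = 0.21). Its call held in 2 of those 8 fits. The matrix protein fbln1.L, fibulin 1, rose from 13.39, 13.85, 14.20 and 13.68 to 14.64, 15.11, 15.21 and 15.22. It had no overlap and a 2.41-fold increase (difference 1.27, SE 0.19, adjusted p = 0.0102), called in all 8 fits with an array left out. Collagen col1a1.S differed by -0.11 (adjusted p = 0.814), with a second probe set at 0.06.

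Blood and immune genes did not move together. Of 19 myeloid genes tested, 2 fell, 1 rose and 16 did not pass (median -0.41). Among all 6126 named genes 1.76% were called lower and 1.08% higher. For this list the count lower ran from 1 to 3 with an array left out. That count was 1 without the 3 arrays of high bioC and 0 in the fit of all 16 arrays. The NADPH oxidase subunit gene cyba.L read 13.07, 12.84, 12.41 and 13.10 at 1 day and 11.17, 11.30, 11.62 and 11.63 at 5 days, and fell by 1.43 (SE 0.20, adjusted p = 0.00715). The leukocyte actin-binding gene coro1a.S fell by 1.38 (SE 0.32, adjusted p = 0.0459), with the highest 1 day array at 11.68 and the others at 10.24 to 10.76. With an array left out, the call of coro1a.S held in 2 of 8 fits and that of cyba.L in all 8. The lipid carrier apoe.L, made by macrophages among other cells, rose by 1.30 (SE 0.22, adjusted p = 0.0153). Among 16 inflammation and complement genes, complement c4a.L rose and 15 did not pass. It read 6.84, 7.84, 8.11 and 7.88 and then 10.24, 10.74, 9.76 and 9.39, a 5.16-fold rise (difference 2.37, SE 0.34, adjusted p = 0.00797), whereas c3.L differed by -0.22 (adjusted p = 0.755).

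The 5 matched myeloid markers, 4 above the filter and all 4 below 0, had a summed log2 signal of 12.3005 to 13.95 at 1 day and 12.42 to 12.56 at 5 days. Red cell markers stood apart: the 5 matched genes, 3 above the filter, summed to 15.83 to 16.13 at 1 day and 14.68 to 15.57 at 5 days, without overlap. Of the 14 erythroid genes tested, 12 had a difference below 0 (median -0.78), but 1 fell and 13 did not pass. The globin gene hbd.S fell by 0.83 (SE 0.18, adjusted p = 0.0335), from 15.22, 15.71, 15.47 and 15.46 to 14.87, 14.15, 14.63 and 14.87. Its call held in 1 of 8 fits with an array left out and ended in the limma fit of all 16 arrays (adjusted p = 0.751). The part of blood content in the other results was not tested.

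DNA replication genes were the list with the most calls upward. Of 52 tested, 8 rose, 0 fell and 44 did not pass, and 51 had a difference above 0 (median 0.83 against 0.08 over all probe sets). On 23 of the 52 the 5 day arrays lay above all 1 day arrays, against 6.24% of all probe sets. At an unadjusted p below 0.05, 35 were higher, against 1188 of all 11618 probe sets. The helicase subunit gene mcm7.L read 11.00, 11.38, 11.12 and 11.31 at 1 day and 12.28, 12.16, 11.90 and 11.80 at 5 days (difference 0.83, SE 0.18, adjusted p = 0.0368). The clamp loader subunit gene rfc5.L read 8.51, 8.79, 8.82 and 8.56 and then 9.80, 9.68, 9.52 and 9.66. Both days were narrow there, and it rose 1.99-fold (difference 0.99, SE 0.19, adjusted p = 0.0214).

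The primase subunit gene prim2.S rose by 1.39 (SE 0.30, adjusted p = 0.0344), and the RNase H2 subunit gene rnaseh2a.L rose by 1.06 (SE 0.23, adjusted p = 0.0359), with 5 day arrays at 12.07 to 12.15. The other calls were the dUTPase gene dut.L (1.31), the polymerase epsilon subunits pole.L (1.12) and pole2.L (1.37), and uhrf1.S (1.26), which keeps DNA methylation through replication. For uhrf1.S 1 other probe set was called at 1.48 and a dim one at 0.42 was not. The sliding clamp pcna.L read 12.303, 13.34, 13.07 and 12.64 at 1 day and 13.62 to 13.77 at 5 days and missed the threshold (0.84, SE 0.21, adjusted p = 0.0598), as did mcm2.L (0.83, SE 0.22, adjusted p = 0.0682). The number of replication genes called ran from 0 to 13 with an array left out, and was 0 without the 3 arrays of high bioC and 0 in the fit of all 16 arrays.

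Mitosis genes leaned the same way without a call. Of 68 tested, 66 had a difference above 0 (median 0.60 against 0.08 over all probe sets), and 0 passed. Unadjusted p was below 0.05 for 20 higher and 0 lower, against 1188 and 938 of all 11618 probe sets. The kinase gene aurkb.L, a chromosomal passenger, read 8.88, 10.33, 11.07 and 10.34 at 1 day and 11.08, 11.57, 11.55 and 11.21 at 5 days. Replicate 1 was the lowest 1 day array, and the difference of 1.2 (SE 0.37) had an adjusted p of 0.118. For cdk1.L the 1 day arrays ran from 9.23 to 11.62 and the 5 day arrays from 11.31 to 11.85, and for ccna2.L from 7.02 to 8.87 and from 9.19 to 9.93 (adjusted p = 0.29 and 0.12). Replicate 1 at 1 day was also the lowest in both of these.

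The MYC-family gene mycn.S, which drives growth of limb bud and other progenitors, was the called increase among 21 genes of G1 control, where gadd45g.S and gadd45g.L fell. It read 9.98, 9.65, 10.74 and 10.42 at 1 day and 11.85, 12.14, 11.85 and 12.099 at 5 days, a 3.45-fold rise (difference 1.79, SE 0.24, adjusted p = 0.00539) called in all 8 fits with an array left out. Its homeolog mycn.L differed by 0.86 (adjusted p = 0.0627). Of 30 chromatin and high-mobility-group genes, the histone chaperone anp32e.L rose by 0.82 (SE 0.15, adjusted p = 0.0188) and 29 did not pass (median 0.32, 25 above 0).

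FGF signalling genes gave 5 increases and 0 decreases among 12 tested, with 7 not passing. The share of all 6126 named genes called higher was 1.08%. Of the 12, 11 lay above 0, with a median of 0.68 against 0.08 over all probe sets. With p unadjusted and below 0.05, 7 were higher and 0 lower, against 1188 and 938 of all 11618 probe sets. The ligand gene fgf8.L, expressed by limb bud and blastema epidermis, read 6.07, 6.79, 7.11 and 6.92 at 1 day and 8.19, 8.12, 8.57 and 8.25 at 5 days. Its 5 day arrays lay close together and above all 1 day arrays, and it rose 2.96-fold (difference 1.56, SE 0.29, adjusted p = 0.0206). The 1 day mean of 6.72 lay near the filter level of 6.56, and no detection call was used, so the size of the fold is uncertain. With an array left out, the call of fgf8.L held in 3 of 8 fits. The ligand gene fgf9.S rose from 8.31, 9.13, 8.93 and 8.73 to 9.56, 9.99, 9.98 and 10.38 (difference 1.2, SE 0.24, adjusted p = 0.0288).

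The other 3 FGF calls were feedback inhibitors that FGF signalling itself induces. The receptor-pathway antagonist spry2 rose in both homeologs. For spry2.S the 1 day arrays were 7.69, 7.68, 7.74 and 7.71 and the 5 day arrays 8.64, 9.01, 8.93 and 9.08 (difference 1.21, SE 0.21, adjusted p = 0.015), and spry2.L rose by 1.41 (SE 0.29, adjusted p = 0.0299). The ERK phosphatase gene dusp6.L read 7.68, 7.14, 6.54 and 6.85 and then 8.52, 8.48, 8.32 and 8.48 (difference 1.40, SE 0.28, adjusted p = 0.0278).

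Among receptors, fgfr1.L differed by 0.68 (adjusted p = 0.163), and the mesenchymal ligand fgf10.S by 0.51 (adjusted p = 0.523) at a signal near the filter. The FGF count ran from 0 to 5 with an array left out and was 0 in the fits of all 16 arrays and without the 3 arrays of high bioC.

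Limb patterning genes had 3 increases and 0 decreases among 42 tested, with 35 above 0 and a median of 0.41. The share called higher among all 6126 named genes was 1.08%, and the median over all probe sets was 0.08. Unadjusted p lay below 0.05 for 16 higher and 1 lower, against 1188 and 938 of all 11618 probe sets. The increases numbered 0 to 5 with an array left out, 0 without the 3 arrays of high bioC and 0 in the fit of all 16 arrays. The zinc-finger transcription factor gene sall1.L read 6.89, 7.83, 8.59 and 8.49 at 1 day and 9.24, 10.04, 10.69 and 11.18 at 5 days. Both days were spread widely but did not overlap, and it rose 5.06-fold (difference 2.34, SE 0.45, adjusted p = 0.0214). The BMP antagonist grem1.L, which in the limb bud relays sonic hedgehog to epidermal FGFs, read 9.21, 8.53, 8.51 and 9.09 and then 10.20, 9.82, 9.99 and 10.03 (difference 1.18, SE 0.22, adjusted p = 0.0208). The NOTCH target hes1.L rose by 1.19 (SE 0.22, adjusted p = 0.0206), with hes1.S at 1.03 and an adjusted p of 0.065.

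Several classical limb bud and blastema regulators lay higher without passing. The LIM-homeobox genes lhx9.L and lhx2.L differed by 1.41 (SE 0.34, adjusted p = 0.0507) and 1.44 (SE 0.42, adjusted p = 0.0992). The blastema homeobox gene msx2.L read 7.72, 8.73, 7.83 and 7.78 at 1 day and 9.23, 9.05, 9.69 and 8.66 at 5 days, where 1 array of each day crossed (1.15, SE 0.29, adjusted p = 0.0647), and msx1.L differed by 0.88 (adjusted p = 0.249). For sall3.L the difference was 1.2 (adjusted p = 0.153) and for shh.L 0.74 (SE 0.39, adjusted p = 0.334), with 7.26, 8.58, 9.03 and 8.30 against 8.22, 9.003, 9.50 and 9.41. The posterior mesenchyme gene hand2.S differed by 0.40 (adjusted p = 0.344).

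Hox genes, 14 tested, had 0 calls (4 higher and 0 lower unadjusted), with 13 above 0 and a median of 0.64. The zeugopod and autopod genes hoxa11.S, hoxa13.S and hoxd13.S differed by 0.79, 0.49 and 0.88, with adjusted p of 0.146, 0.697 and 0.5. The 7 matched markers of limb bud mesenchyme, 6 above the filter and all 6 above 0, had a summed log2 signal of 12.91 to 13.66 at 1 day and 13.57 to 14.20 at 5 days. These ranges just overlapped, and the part of mesenchymal content in the patterning result was not tested.

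**Figure D4:**
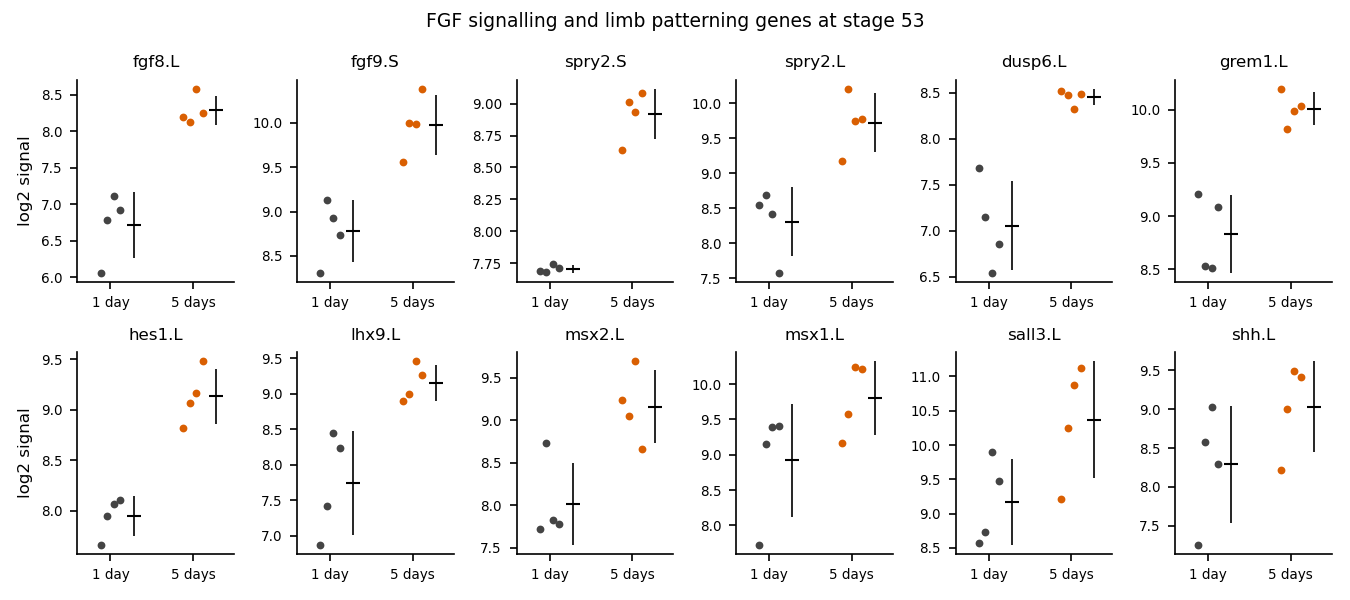
Log2 MAS5 signal of 12 FGF signalling and limb patterning genes on the 4 stage 53 arrays at 1 day (grey) and the 4 at 5 days (orange), with mean and SD beside each group. In the genes called higher, such as fgf8.L (8.12 to 8.57 at 5 days against 6.07 to 7.11) and spry2.S (8.64 to 9.08 against 7.68 to 7.74), the days are apart; in msx1.L, sall3.L and shh.L, which were not called, they overlap.

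In the WNT, BMP, retinoid and hedgehog lists the calls were 3, of which 2 were secreted antagonists and 1 an enzyme. Over 6126 named genes 1.08% were called higher and 1.76% lower. With 28, 35 and 20 genes tested, 1 call does not set a list apart from that share. The BMP call, grem1.L, is also counted under limb patterning. Each of these calls was lost with some array left out and when all 16 arrays were fitted. Dropping the 3 arrays with bioC above 12 also ended them, but brought 1 increase among retinoid and hedgehog genes. The WNT antagonist dkk1.S read 5.51, 7.23, 7.39 and 6.98 at 1 day and 8.13, 8.90, 9.84 and 9.20 at 5 days. It rose 4.73-fold (difference 2.24, SE 0.45, adjusted p = 0.0277) and was the 1 call among 28 WNT genes, whose median was 0.14. Its relative dkk2.L differed by 0.80 (adjusted p = 0.0565). The WNT receptor fzd7.L differed by 0.88 on its brightest probe set (adjusted p = 0.0981), and another probe set of it was called at 1.2 (adjusted p = 0.0324). Of 35 BMP and TGF-beta genes, grem1.L rose and 34 did not pass (median 0.10), with the pseudoreceptor bambi.L just outside at 1.34 (SE 0.32, adjusted p = 0.0503).

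Retinoid and hedgehog genes gave 1 call among 20, a decrease. It was rdh10.S, the enzyme of the first step from retinol to retinoic acid, which read 11.96, 11.73, 12.41 and 12.06 and then 10.88, 10.90, 10.39 and 9.68 (difference -1.58, SE 0.28, adjusted p = 0.0153). Its homeolog rdh10.L differed by -0.85 (adjusted p = 0.157). The retinoic acid degrading enzyme cyp26c1.S differed by 1.87 (SE 0.59, adjusted p = 0.118), from a 1 day mean of 5.90 that lay under the filter level, and the hedgehog-binding protein gene hhip.L by 1.19 (adjusted p = 0.106).

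Several of the largest increases lay outside these pathways. The largest among named genes was dynll1.S, a dynein light chain, at 7.02, 7.25, 7.80 and 8.17 and then 10.27, 10.60, 11.63 and 11.48 (difference 3.44, SE 0.35, adjusted p = 0.000581). A brighter probe set with the same symbol differed by -0.68 and did not pass (adjusted p = 0.144), so the 2 probe sets disagree and the change of this gene is uncertain. The calpain protease gene capn8.3.L rose by 3.23 (SE 0.40, adjusted p = 0.00313), from 6.69 to 8.64 at 1 day to 10.31 to 11.71 at 5 days. The lipid transfer protein gene pltp.S rose by 2.42 (SE 0.31, adjusted p = 0.0045), and a second probe set of it by 1.89. The gap junction gene gja1.L, connexin 43, rose from 11.03, 11.41, 11.38 and 11.37 to 12.66, 12.77, 13.09 and 13.24 (difference 1.64, SE 0.19, adjusted p = 0.00178).

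Other increases named by the rule lay in a similar range. The gene sncg.S, gamma-synuclein, rose by 1.96 (SE 0.31), the membrane glycoprotein gene gpm6a.L by 1.74 (SE 0.22) with 2 more probe sets called higher, and the orphan receptor gene gprc5b.L by 1.56 (SE 0.28). Some of the steepest changes carry no gene symbol in the annotation. The steepest 2 rises among these were 3.91 and 3.51, and the steepest 2 falls were -4.87 and -3.47.

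**Figure D5:**
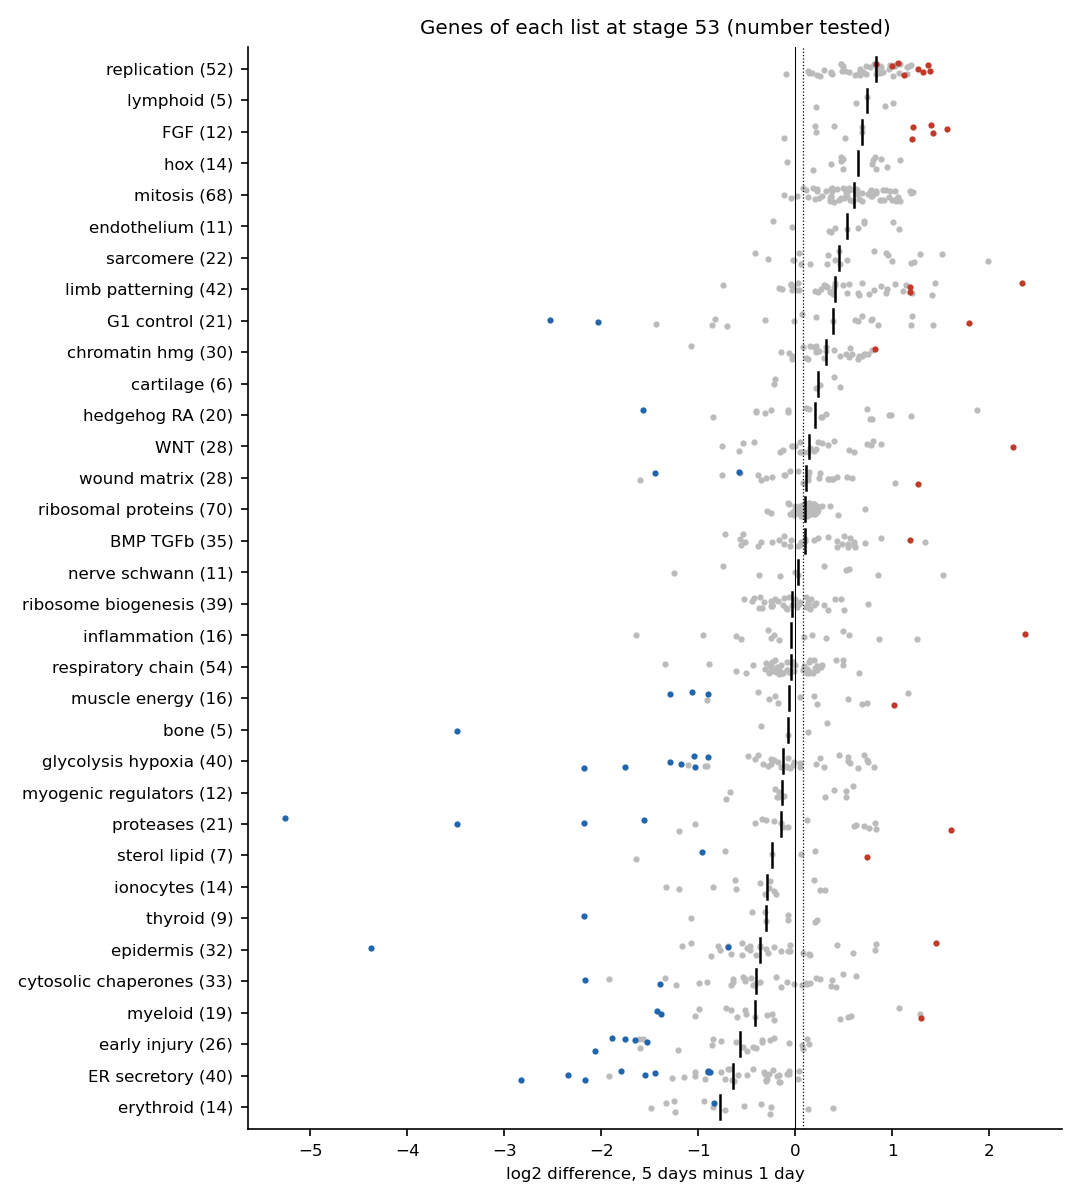
Log2 difference, 5 days minus 1 day, of each tested gene in 34 gene lists, ordered by the list's median (black bar), with the number tested in brackets; red points are genes called higher, blue points genes called lower and grey points genes not called, and the dotted line is the median of 0.08 over all probe sets. Replication, lymphoid and FGF lists lie farthest to the right with medians of 0.83, 0.74 and 0.68, and early injury, ER and erythroid lists farthest to the left with -0.57, -0.65 and -0.78.

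Whether these changes differed from those at stage 57 was tested over all 16 arrays as the change at stage 53 minus the change at stage 57. Of the 11618 probe sets 1 passed (0.00861%), krt17.S, and 462 had an unadjusted p below 0.05. At stage 57 krt17.S read 14.64, 14.82, 13.56 and 14.19 at 1 day and 14.31, 14.50, 14.17 and 13.42 at 5 days, so the days overlapped (difference -0.20). The change at stage 53 was lower by 4.18 (SE 0.61, adjusted p = 0.0354). That call ended, at an adjusted p of 0.108, without the 3 stage 57 arrays of high actin ratio (difference -3.93), and it ended in 6 of the 8 fits with a stage 53 array left out, where the adjusted p ran from 0.00339 to 0.146. For mmp1.S the stage 57 change was 0.88 and the difference in change -6.14 (SE 1.07, adjusted p = 0.0963), and for socs3.L they were 0.48 and -2.54 (SE 0.42, adjusted p = 0.072). No difference between stages was therefore called for the replication, FGF, ER or glycolysis genes, whose lowest adjusted p were 0.997, 0.997, 0.718 and 0.846. The test was less precise than the main fit: for mmp1.S its SE was 1.07, against 0.52 for the stage 53 difference. The day change at stage 57 itself gave 0 calls among 11618 probe sets in the 16-array fit. The lack of a call therefore does not show that a change was shared by both stages.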

How the data were processed

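Per the series' design text, RNA was amplified with a 2-cycle Affymetrix kit before hybridisation, 1 sample per array. The authors deposited 1 linear signal intensity per probe set and array, made with MAS5 according to the submitters' processing notes. Its version and target level are not given in the sources used here. On each stage 53 array the mean without the outer 2 percent at each end was about 1000. Over all 16 arrays, control probe sets included, values ran from 0.6 to 325607.8. Present or absent calls did not enter, so dim probe sets are not told from background, and the number of arrays limits the precision.

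Intensities were transformed to log2 with no offset. Of 15611 probe sets, 120 were controls and were dropped. The filter kept 11618 of the rest, those with a mean over the 8 arrays above its 25th percentile (6.56). Group means were fitted with limma 3.58.1 in R 4.3.3 (lmFit, eBayes with an intensity trend), p-values were adjusted by the Benjamini-Hochberg method over all kept probe sets, and adjusted p under 0.05 counts as a call. The difference from the stage 57 change was fitted to all 16 arrays on the same probe sets. The fitting code was tested on simulated data.

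Of 15491 probe sets, 9304 carried 1 gene symbol, 195 several and 5992 none in the platform annotation. By Entrez identifier 9227 matched RefSeq genes of assembly Xenopus_laevis_v10.1, and 2 symbols were updated. A gene in a list is represented by its brightest kept probe set. The comparison, the 34 gene lists, the cell type markers and the rule for named genes were chosen with earlier results of these data known. Under that rule the 12 steepest calls in each direction are named, provided that days do not overlap, the higher mean is above the overall median signal, and the symbol is single and informative. It adds up to 5 members of each list described, by smallest p, and a fixed set of limb, injury, matrix and muscle genes. Of that set ccnb1, dio3 and tp63 lay below the filter, and fos, pax7, prrx1 and sall4 matched no probe set with 1 symbol. A few further list members are named as the remaining calls of a list, chosen after their values were seen.

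Alternatives comprised median centring of arrays, quantile normalization, offsets of 32 and 103.2 before log2, a stricter filter (50th percentile) or none, eBayes without the trend or with a robust one, array weights, each stage 53 array left out, a fit of all 16 arrays, and every probe set of a list counted. Chosen after seeing the data were fits without the 3 stage 53 arrays of bioC above 12 and without the 3 stage 57 arrays whose actin ratio was above 4. No sequence was used.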

Additional observations from a re-analysis of the deposited data

Results flagged for a closer look

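For each named gene, the highest and the lowest of the 4 arrays of a day were compared with the rest by the gap to the nearest array over the whole range. Of 292 groups of 4 arrays, 14 held an array beyond Dixon's critical value (4.79%), and chance alone gives about 5% of groups. Replicate 1 at 1 day was the outlying array in 4 of them and replicate 4 at 5 days in another 4.

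Replicate 1 at 1 day read low for sncg.S (6.54, against 7.44 to 7.49 on the other 3 arrays), gja1.L (11.03), stmn1.L (10.16) and msx1.L (7.73). All 4 genes had higher means at 5 days, and for sncg.S and gja1.L, which were called, the call held without that array. Replicate 4 at 5 days read high for gprc5b.L (9.79), slurp1l.S (10.74) and fzd10.S (8.65) and low for hmox1.S (10.43). Replicate 1 at 5 days read high for apoe.L (12.24) and prim2.S (10.45) and low for lhx2.L (8.17). Replicate 3 at 1 day read low for fgl2.L (10.32) and ahsa1.L (8.13), and replicate 2 at 1 day read high for msx2.L (8.73).

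The change of krt17.S at stage 53 differed from its change at stage 57 by -4.18 on the log2 scale (adjusted p = 0.0354 in the limma fit of 16 arrays).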

How the results depend on the processing

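The counts of 121 probe sets higher and 157 lower stayed within 1.5 times under quantile normalization, both offsets, no filter, the 50th percentile filter and the robust trend, and in the joint fit of 13 arrays without the 3 stage 57 arrays of high actin ratio (150 and 216, with 247 of the 278 calls shared). They moved farther with no intensity trend (80 and 100) and with array weights (349 and 398). Centring on array medians gave 248 lower and 95 higher. The joint fit of 16 arrays gave 4 and 9, and the fit without the 3 arrays of high bioC gave 17 and 28. With an array left out the counts ran from 22 to 183 higher and from 34 to 235 lower. No filter moved the median of all probe sets to 0.12, and quantile normalization moved it to 0.02. The single probe set whose change differed between stages became 0 with no intensity trend, 8 with array weights, 0 in the 13-array fit and between 0 and 2 with a stage 53 array left out. The cause of these moves was not tested, other than that leaving arrays out leaves fewer of them.

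Of 143 named probe sets 68 were called. Over all alternatives 1019 of their 1349 tests kept the call and 330 lost it, with 0 changes of sign. The days did not overlap for any of the 68. Leaving out or weighting arrays, or adding an offset, therefore could not reverse a sign. Changes of filter or trend and the joint fits kept the same differences. Agreement in sign was thus settled in advance except under quantile normalization and centring on array medians, and lends the calls no support elsewhere. Of the 68, 24 were called with each array left out in turn, and 8 in the 16-array fit. Under most settings no change of sign was open to the called genes. Sign did change in some genes that were not called. These were fgf10.S (-0.074 without the 3 arrays of high bioC), c3.L (-0.42 to 0.017 with an array left out), col1a1.S (-0.25 to 0.058), sox9.S (-0.18 to 0.46, and -0.051 with array weights), myod1.S (-0.27 to 0.017, and 0.035 with array weights) and acta1.S (-0.71 to 0.032, and 0.79 with array weights). No paired analysis was possible because the replicate numbers used here follow accession order and the labels themselves number no replicates.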

Other observations

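Several further lists had no call in the limma fit. Of 11 endothelial genes tested 9 lay above 0 (median 0.53, 4 higher and 0 lower at an unadjusted p below 0.05), with the SOX factor sox18.L at 1.01 (adjusted p = 0.11) and the apelin receptor aplnr.L at 1.07 (adjusted p = 0.144). Of 5 lymphoid and antigen presentation genes all 5 lay above 0 (median 0.74), with b2m.S at 1.01 (adjusted p = 0.213). Of 14 ionocyte genes 11 lay below 0 (median -0.29, 0 higher and 5 lower unadjusted), with carbonic anhydrase ca2.L at -1.20 (adjusted p = 0.141). Cartilage genes, 6 tested, had a median of 0.23 with col2a1.S at 0.46 (adjusted p = 0.517), and 12 myogenic regulators had a median of -0.14 with myod1.S at -0.11 (adjusted p = 0.877). These 5 lists had 0 calls by limma, and at an unadjusted p below 0.05 the lymphoid list had 2 higher, the cartilage list 0 and the myogenic list 1 higher. In the sterol and lipid list, 7 tested, the desaturase scd.S rose by 0.74 (adjusted p = 0.034) and fdps.S, an enzyme of isoprenoid synthesis, fell by 0.97 (adjusted p = 0.0367). Of 9 thyroid hormone response genes, mmp11.L fell and 8 did not pass, and of 5 bone genes, mmp13l.S fell and 4 did not pass. Nerve and Schwann cell genes, 11 tested, had 0 calls (1 higher and 1 lower unadjusted) and a median of 0.03.

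The homeologs of a gene are separate loci measured by separate probe sets, although their sequences are alike and a probe set may bind both. Over 772 pairs with both members tested, 527 had differences of the same sign (68.3%), with a Pearson r of 0.55 across genes, which are not independent replicates. In 39 pairs at least 1 member was called, and 36 of these pairs had the same sign. Both members were called in 4 pairs, aldoa, gadd45g, hibadh and spry2, and 0 pairs had opposite calls. Of the 3 pairs with opposite signs, krt12.2 differed most, with the L member at 1.45 and the S member at -0.47 (adjusted p = 0.436). The pair of tgm2, a transglutaminase, had -1.999 (L) and -0.29 (S), and that of tipin, a replication fork protein, 0.07 (L) and 1.37 (S). These pairs were chosen after their values were seen.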
